A study of Canis lupus familiaris with 4 samples.

Results

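DSP and KRT14 were described in MDCK cells, a line of dog kidney epithelium, carrying either of the E2-2 transfectants E22A and E22B. E2-2, encoded by TCF4, is a class I basic helix-loop-helix transcription factor, and the study asks what such factors do to E-cadherin in the epithelial-mesenchymal transition. Each transfectant was read against RNA of MDCK-CMV control cells on 2 spotted cDNA arrays, described by the study as exchanging the Cy3 and Cy5 dyes, giving 4 arrays in all. The arrays of a transfectant repeat 1 RNA comparison, so E22A and E22B each count as 1 biological sample, and an SD here is taken over 2 arrays and measures technical spread. MDCK-CMV is the control of both, so the E22A and E22B values share it. The sources used here do not say how the lines were selected or whether each is 1 clone.

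The clones were those whose annotated symbol is exactly DSP or KRT14. There was 1 clone of each, so the genes account for 2 of 13824 clones and, printed in duplicate, for 4 of 27648 spots. Both had a value on every spot of every array and so passed the filter that left 8657 features, 4892 of them with a gene symbol. They were chosen by these same ratios, for lying at 2-fold or more, that is 1 log2 unit or more in size, on all 4 arrays. Their ratios are therefore given as a description, with no test.

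Desmoplakin, the product of DSP, is the plakin of the inner desmosomal plaque. Its head binds the armadillo proteins plakoglobin and plakophilin, which hold the desmosomal cadherins, and its tail binds keratin filaments. Keratin 14 is a type I keratin that forms filaments with the type II keratin 5, chiefly in the basal layer of stratified epithelia. Simple epithelia such as the kidney tubule are better known for keratins 7, 8, 18 and 19. Desmoplakin and keratin 14 thus stand at the anchor and in the cable of one adhesion system. The values are dye ratios, which give no expression level, so neither the presence of the proteins' partners nor the identity of the cells could be read from them.

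DSP lay far from 0 on every array (Entrez gene 1832). As deposited, its duplicate spots read -1.16 and -1.17 on E22A array 1, and -1.13 and -1.16 on E22A array 2. On E22B array 1 they read -1.43 and -1.46, and on E22B array 2 they read 1.42 and 1.38. The sign was negative on 3 arrays and positive on E22B array 2. Averaged over spots, the ratio of the dyes was 2.25-fold and 2.21-fold in size on the E22A arrays, and 2.72-fold and 2.63-fold on the E22B arrays. The larger E22A size and the smaller E22B size were 1.17 and 1.40 log2 units. They were less far apart than the largest SD between clones of one sequence, 0.257, so no difference between the transfectants is read from them.

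KRT14 showed the same signs on the same arrays (Entrez gene 3861). Its spots read -1.62 and -1.58 on E22A array 1, and -1.11 and -1.06 on E22A array 2. On E22B array 1 they read -1.19 and -1.21, and on E22B array 2 they read 1.35 and 1.31. The sizes were 3.03-fold and 2.12-fold on the E22A arrays, and 2.30-fold and 2.51-fold on the E22B arrays. E22A held both the largest and the smallest of the 4 KRT14 sizes, so the transfectants overlapped.

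**Figure D1:**
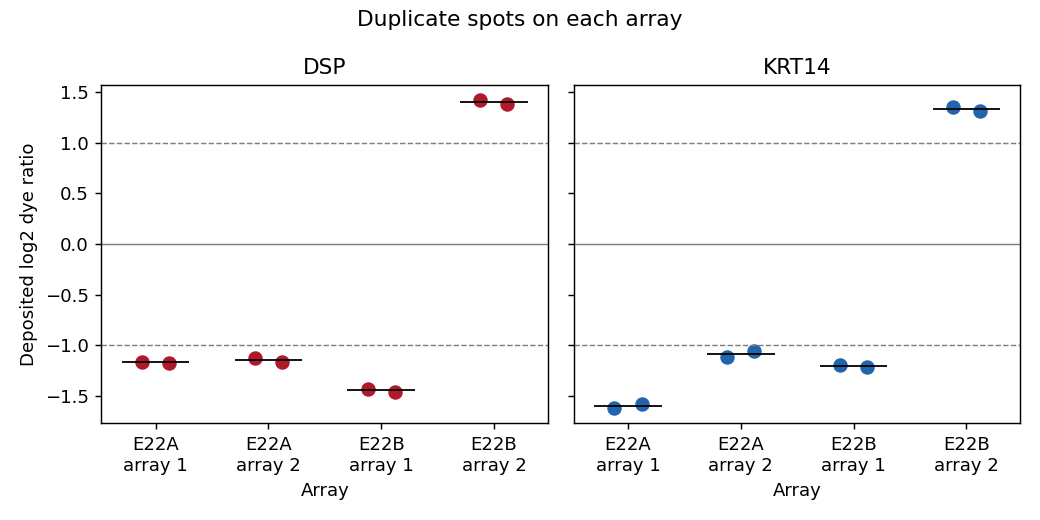
Deposited log2 dye ratio (vertical axis) of the duplicate spots (points) of DSP and KRT14 on each of the 4 arrays, with their mean (bar) and the 2-fold limits (dashed). Both genes sit below -1 on 3 arrays and above 1 on E22B array 2.

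The duplicate spots agreed closely. For DSP they differed by between 0.00696 and 0.0375 log2 units over the 4 arrays, and for KRT14 by between 0.0204 and 0.0536. Over all clones the median difference between duplicates ranged from 0.0210 to 0.0268 by array, and duplicates correlated at between 0.901 and 0.981 across clones. Duplicate spots share a preparation of the clone, so their agreement leaves out the error between preparations. That error was read from 643 sequences that the annotation places in more than 1 clone (1370 clones with a value on all 4 arrays). Clones of one such sequence had an SD of 0.165 and 0.179 on the E22A arrays, and of 0.181 and 0.257 on the E22B arrays. Of these sequences, 3 had a clone past 2-fold on one side of both turned E22B arrays, and in 1 of the 3 every clone met that limit. DSP and KRT14 have no second clone, so their own values could not be checked in this way.

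The rule that chose the genes, 2-fold or more on all 4 arrays, also places them among the more extreme features of each array. Their places are thus a description and not a finding. Counted from the largest of 8657 features, DSP was at place 128 and 113 on the E22A arrays and at place 81 and 119 on the E22B arrays. KRT14 was at place 61 and 136 on the E22A arrays and at place 140 and 135 on the E22B arrays. Single arrays held between 2.09% and 3.04% of features at that size. On all 4 arrays together 18 features reached it (0.208%), and DSP and KRT14 were 10th and 12th of them by their smallest size, which was 1.15 for DSP and 1.09 for KRT14. Just inside the limit lay DPP4, a cell surface peptidase (1.03), and EGR1, an immediate early transcription factor (1.00). Just outside lay CTH, an enzyme of cysteine synthesis (0.98), and a clone without a symbol (0.94). Among the 18, DSP had the second narrowest range of sizes over the 4 arrays (0.295) and KRT14 the fourth (0.515), while PLAU, the urokinase activator, had the narrowest (0.181).

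Turning the arrays so that a transfectant is always read against the control gives the direction. For E22B the dyes in the titles match those of the channels, and before turning the pair had r = -0.407 over all features, so the sign of array 1 was changed. Positive values then lie on the side of CDH1 (E-cadherin, the cadherin of adherens junctions), which stood at 1.08 and 0.79 on the E22B arrays from the 1 of its 3 clones measured on all 4 arrays. The opposite side is that of FN1 (fibronectin, a mesenchymal matrix protein), at -2.08 and -1.36. The sources used here do not name the numerator dye. With Cy5 as numerator, genes on the E-cadherin side were higher in E22B than in the control, and with Cy3, lower. Cy5 over Cy3 is the more usual, but with it CDH1 would be higher in E22B, against what is known of E2-2, a repressor of E-cadherin in MDCK cells. So whether DSP and KRT14 were higher or lower in the transfectant is not settled, and only their side relative to CDH1 and FN1 is given.

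In E22B, DSP stood at 1.42 ± 0.02 (log2, SD, n = 2 arrays), a 2.68-fold ratio, and KRT14 at 1.27 ± 0.10, a 2.41-fold ratio, both on the E-cadherin side. This side of both E22B arrays held 45 of 8657 features past the limit (0.52%), and both genes are among them by the rule that chose them. The part of each ratio that changed sign with the dye can be set beside the part that did not. For DSP the turning part was 1.42 and the other -0.02. For KRT14 they were 1.27 and 0.07. Over all features the median sizes of these parts were 0.15 and 0.08, so the part of DSP and KRT14 that did not turn was no larger than that of a typical feature. Their turning parts were at place 65 and 96 from the largest, which follows in part from choosing genes at 2-fold on both arrays.

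**Figure D2:**
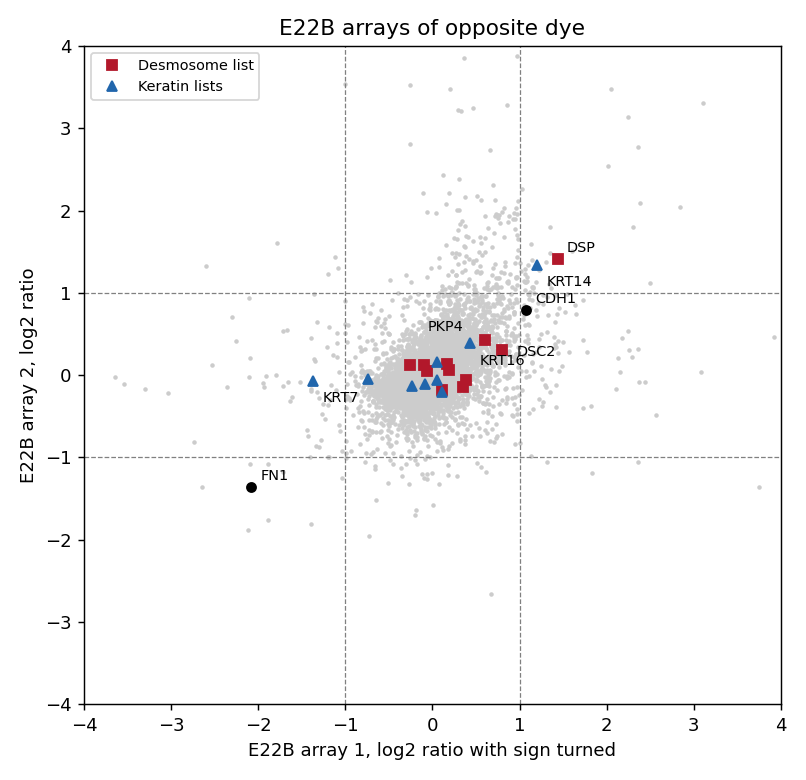
Log2 ratio on E22B array 1 with its sign turned (horizontal axis) against array 2 (vertical axis) for all features (grey; 19 lie outside the axes), with members of the desmosome list (squares) and keratin lists (triangles), CDH1 and FN1 (circles) and the 2-fold limits (dashed). DSP and KRT14 lie past 2-fold on both arrays, beside CDH1 and opposite FN1, and the other listed genes lie nearer 0 on at least 1 array.

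For E22A the labels disagree about the dyes. The title of array 1 names Cy5 and spells the transfectant EE2A, whereas its channel labels put E22A in Cy3. The title of array 2 names Cy3, its Cy5 channel is labelled as control, and the Cy3 channel carries no text of its own naming E22A. With the signs that the titles give, the pair had r = -0.371, beyond the limit of -0.3 below which a direction was taken as not settled. Values of E22A are therefore given in both readings or without turning, and for some genes only E22B is given.

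By title DSP stood at -1.17 and 1.15 on the E22A arrays, which average -0.01 ± 1.64 (SD, n = 2 arrays). By channel label it stood at 1.17 and 1.15, which average 1.16 ± 0.02, a 2.23-fold ratio on the E-cadherin side. KRT14 averaged -0.26 ± 1.90 by title, from -1.60 and 1.09, and 1.34 ± 0.36 by channel label, a 2.54-fold ratio on the E-cadherin side. In the title reading the arrays of E22A thus lay on opposite sides for both genes, and in the channel-label reading on one side. CDH1 behaved likewise, at 0.11 ± 1.43 by title and 1.01 ± 0.16 by channel label. By channel label 22 features (0.254%) reached 2-fold on the E-cadherin side of both E22A arrays, and 11 (0.127%) on that side of all 4 arrays. A further 3 were at 2-fold on the opposite side of all 4, 2 of the 18 lay on opposite sides in E22A and E22B, and 2 (RGS2 and EGR1) changed side within a transfectant. By title 0 features were at 2-fold on one side of all 4 arrays. The channel-label reading puts E22A in Cy3 on both arrays, so its means keep any dye effect of a gene, and it goes against the design text, which describes a dye swap for each transfectant.

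**Figure D3:**
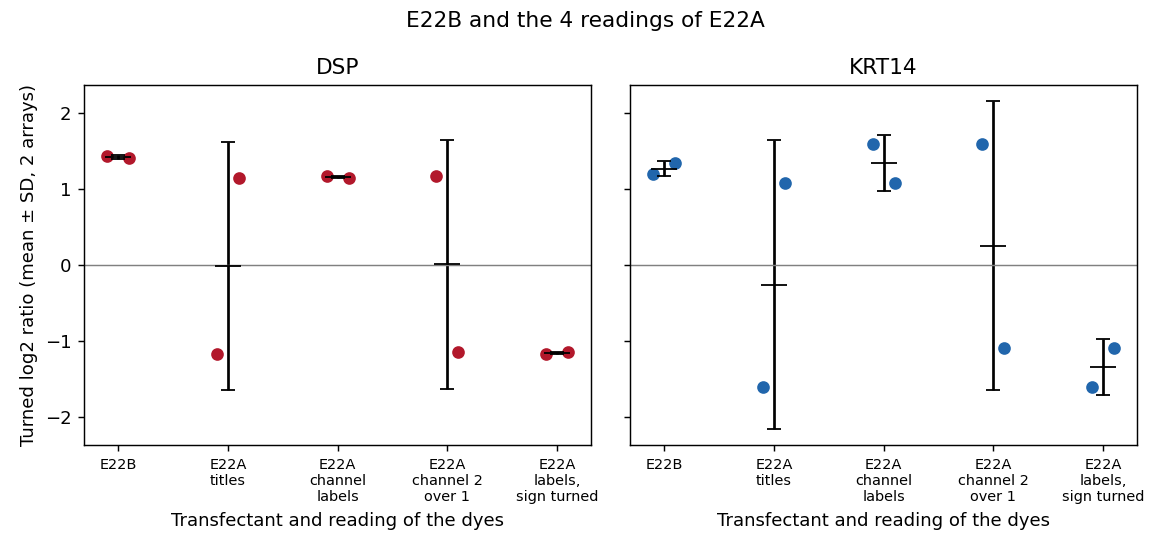
Log2 ratios of DSP and KRT14 (vertical axis) on the 2 arrays (points) with mean ± SD (bars) in E22B and in 4 readings of the dyes of E22A. E22B lies near 1.42 for DSP and 1.27 for KRT14, while E22A lies near 0 with a wide SD in 2 readings, and at plus or minus 1.16 for DSP and 1.34 for KRT14 in the others.

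A pair of further readings was tried for completeness. With the deposited values taken as channel 2 over channel 1, DSP averaged 0.01 ± 1.64 and KRT14 0.26 ± 1.90 in E22A. With the sign of the channel-label pair turned, DSP averaged -1.16 ± 0.02 and KRT14 -1.34 ± 0.36. Side by side, with the control shared, the channel-label means of DSP were 1.42 in E22B and 1.16 in E22A, and those of KRT14 were 1.27 and 1.34. With 1 sample of each transfectant, no test between biological samples was made.

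DSP and KRT14 had the same signs on every array, as deposited, and differed in size most on E22A array 1. In size, DSP exceeded KRT14 by 0.24 and 0.07 log2 units on the E22B arrays and by 0.06 on E22A array 2, and lay 0.43 log2 units under it on E22A array 1 (1.17 against 1.60). The likeness of any gene to them was measured as the root mean square difference over the 4 centred arrays, which does not depend on how the dyes are read. By this measure DSP and KRT14 differed by 0.250, and since both were chosen to be far from 0 this says nothing of a relation between them. The genes nearest to DSP were PLAU (0.210), CTH (0.221), KRT14 itself (0.250), KLF8, a Krüppel-like transcription factor (0.275), and ASNS, asparagine synthetase (0.285). Nearest to KRT14 were DPP4 (0.155), PLAU (0.185), KLF9, a further Krüppel-like factor (0.227), DSP (0.250) and KLF8 (0.287). Each of these rests on 1 clone. Few features are as far from 0 on all 4 arrays (18), so few could lie near them.

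**Figure D4:**
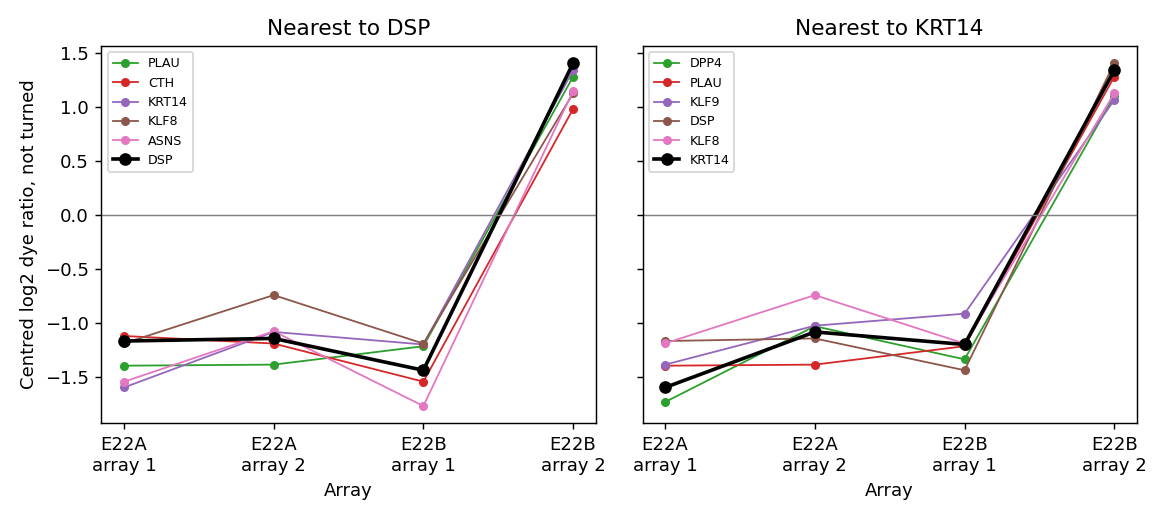
Centred log2 dye ratio without turning (vertical axis) on each of the 4 arrays for DSP and KRT14 (black) and the 5 gene symbols nearest to each (colours). All lie below 0 on the E22A arrays and E22B array 1 and above 0 on E22B array 2.

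DSP was chosen for its size, which the other measured genes of the desmosome did not share. Of 15 genes on the desmosome list 11 were measured on all 4 arrays. Apart from DSP, 0 of 10 were at 2-fold on both arrays of either transfectant. Few features reach that limit on one side of both arrays. In E22B 45 of 8657 did so with CDH1 and 10 with FN1, and in E22A, by channel label, 22 and 11. So 0 of 10 is near the background and does not set desmosome genes apart from other features. In the pooled comparison, which tested the means of E22A and E22B against 0 with limma, 0 of the 10 passed an adjusted p of 0.05 in either direction or reading (at an unadjusted p under 0.05, 0 by title and 2 by channel label). Over all features 0 passed by title (0%) and 1 by channel label (0.0116%), with 283 and 1158 at an unadjusted p under 0.05. With so few called anywhere, 0 of 10 does not set these genes apart from DSP or from other features. The median of the 10 in E22B was 0.12, against -0.00219 over all features. On the E-cadherin side of both E22B arrays lay 4 of them, and on the other side of both, 0. Over all features these counts were 3016 and 3078 of 8657, and the difference was not tested.

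Of the measured armadillo genes on the desmosome list, PKP4, an armadillo protein named as a plakophilin, came nearest to DSP. As centred dye ratios it stood at -0.88 and -1.08 on the E22A arrays and at -0.61 and 0.42 on the E22B arrays, with the signs of DSP on every array. It averaged 0.51 ± 0.13 in E22B, and in E22A 0.10 ± 1.39 by title and 0.98 ± 0.14 by channel label. By channel label it was on the side of CDH1 on all 4 arrays, 1 of the 10 besides DSP, as were 17.2% of all features. JUP, plakoglobin, which binds both desmoplakin and the cadherin tails, stood at -0.04 ± 0.21 in E22B from 0.11 and -0.18. On the E22A arrays it read -0.29 and 0.86, and both of its clones gave the larger value on array 2 (0.87 and 0.85 as deposited). The plakophilins PKP1 and PKP2 stood at -0.06 ± 0.27 and 0.10 ± 0.34 in E22B, on opposite sides of 0 on their arrays. PKP3 and PERP, a desmosomal membrane protein, had no clone in the annotation used.

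The desmosomal cadherins were smaller or unequal between arrays. DSC2, desmocollin 2, which simple epithelia use, averaged 0.55 ± 0.35 in E22B, from 0.80 and 0.30. In E22A it averaged -0.31 ± 0.42 by title and 0.30 ± 0.43 by channel label. It was far from 0 on the first array of each transfectant (-0.60 and -0.80, not turned) and near it on the second (0.01 and 0.30), and its 3 clones with values agreed in sign on both E22B arrays. DSG2, desmoglein 2, its partner in simple epithelia, stood at 0.16 ± 0.31 in E22B, with its arrays on opposite sides after turning (0.38 and -0.06). DSC3, a desmocollin of basal layers, stood at -0.01 ± 0.08. DSG3 had no clone. The SD between arrays of E22B was 0.31 or more for DSC2 and DSG2, against 0.02 for DSP. It was 0.15 for DSC1, 0.08 for DSC3 and 0.03 for DSG1, so a small spread was not particular to DSP. DSP was also chosen for large values on every array, so its spread is not compared further with that of these genes.

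**Figure D5:**
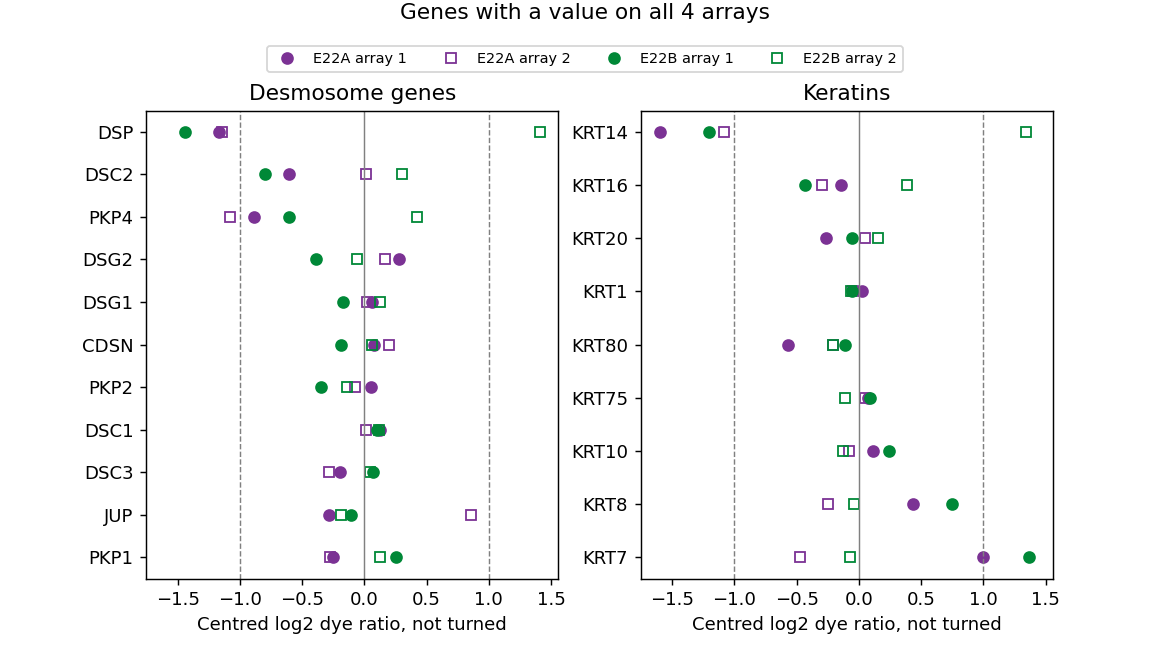
Centred log2 dye ratio without turning (horizontal axis) of each desmosome and keratin gene measured on all 4 arrays, ordered by its mean in E22B, with filled circles for array 1 and open squares for array 2 of E22A (purple) and E22B (green). DSP and KRT14 are past the 2-fold limits (dashed) on all 4 arrays, and no other gene shown is.

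Among the plakins, relatives of desmoplakin that tie filaments to junctions, DST, dystonin, stood at 0.38 ± 0.23 in E22B and had the signs of DSP on all 4 arrays (-0.33, -0.35, -0.55 and 0.22, not turned). MACF1, which crosslinks microtubules and actin, stood at -0.09 ± 0.37. EVPL, envoplakin, lacked a value on E22A array 2 and stood at -0.01 ± 0.13 in E22B as deposited. PPL and PLEC had no clone. Of the 32 plakins and cornified envelope genes 9 were measured on all 4 arrays, with a median of 0.00572 in E22B, and 0 passed in the pooled comparison with limma (0 and 1 at an unadjusted p under 0.05 by title and the channel labels). Over all 8657 features 0 and 1 passed, and 283 and 1158 were under 0.05 unadjusted.

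Keratins other than KRT14 were measured for 8 genes on all 4 arrays, of 53 listed. None of these 8 was at 2-fold on both arrays of a transfectant. That is near the background, since few of the 8657 features reach this limit on one side of both arrays. With CDH1 and with FN1 these were 45 and 10 in E22B, and 22 and 11 in E22A by channel label. In the pooled comparison with limma 0 of the 8 passed (at an unadjusted p under 0.05, 0 by title and 2 by channel label). Over all features 0 and 1 passed, and 283 and 1158 were under 0.05 unadjusted. Their median in E22B was -0.07, and 2 lay on the E-cadherin side of both E22B arrays and 4 on the other side of both. Over all features these counts were 3016 and 3078 of 8657, and the difference was not tested. KRT5, the filament partner of keratin 14, and its relatives KRT15 and KRT17 had no clone in the annotation used. The partner of KRT14 and most of its closest relatives are therefore not analysed here.

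KRT16, a type I keratin induced in stressed epidermis, was the relative with the signs of KRT14 on every array. It stood at 0.41 ± 0.03 in E22B, and in E22A at 0.07 ± 0.31 by title and 0.22 ± 0.11 by channel label. The mean hides a disagreement between clones. In E22B, a pair of its clones stood at 0.58 ± 0.03 and 0.59 ± 0.09, while the third stood at 0.04 ± 0.06, although the annotation gives all 3 the same sequence. A single clone, as for KRT14, would not show such a difference. Whether the KRT14 clone also binds RNA of KRT16 or KRT17 was not tested, since no clone sequence was used here.

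Of the keratins of simple epithelia, KRT7 and KRT8 lay on the FN1 side of E22B, mostly on 1 array, and KRT18 on the other side of the array that measured it. KRT7 stood at -1.37 and -0.07 on the turned E22B arrays (-0.72 ± 0.92), and KRT8 at -0.75 and -0.04 (-0.39 ± 0.50). KRT7 was not among the genes set out for naming and was chosen after its values were seen. On the E22A arrays, not turned, KRT7 read 0.99 and -0.48 and KRT8 0.44 and -0.25, again with the larger value on array 1. KRT18, the filament partner of keratin 8, had a value on 1 array alone, E22B array 1, where it read -1.12 as deposited and 1.12 after turning, on the E-cadherin side. KRT19 had no value on any array. KRT10, a keratin of suprabasal epidermis, stood at -0.18 ± 0.08 and KRT20, of intestinal epithelium, at 0.10 ± 0.07 in E22B. Against these, KRT14 was the keratin with a large value on both arrays of each transfectant, which is also what it was chosen for.

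Anchors of keratin at the basement membrane were measured for 4 of 11 genes. CD151, a tetraspanin bound to laminin-binding integrins, stood at 1.02 and 1.27 in E22B (1.14 ± 0.17), the member at 2-fold on both E22B arrays. In E22A it averaged 0.23 ± 1.22 by title and 0.86 ± 0.32 by channel label. ITGA6 and ITGB4, the integrin chains of the hemidesmosome, differed in pattern. ITGA6 stood at -0.15 and 0.87 in E22B (0.36 ± 0.72) and, not turned, at -0.38 and -1.48 in E22A, larger on the second array of each transfectant. ITGB4 stood at 0.01 ± 0.08 in E22B, where its 2 clones of one sequence disagreed (-0.14 and 0.15 before centring). In E22A it averaged -0.02 ± 0.60 by title and 0.42 ± 0.03 by channel label. COL17A1 had no clone. The pooled comparison passed 0 of the 4 with limma in either reading (unadjusted p under 0.05 in 1 and 3, titles first). Over all 8657 features 0 and 1 passed, and 283 and 1158 were under 0.05 unadjusted. With 4 genes measured, no result for the anchors is read from these counts.

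Of 25 transcription factors of epidermis and their signals 11 were measured on all 4 arrays, with a median of 0.13 in E22B. KLF4, an epithelial differentiation factor, was at 2-fold in size on all 4 arrays and stood at 2.44 ± 0.57 in E22B, and in E22A at -0.39 ± 2.96 by title and 2.09 ± 0.55 by channel label. TP63, the factor that defines basal keratinocytes and acts on KRT14, had no clone. With limma 0 of the 11 passed in either reading (unadjusted p under 0.05 in 1 and 3, titles first). Over all 8657 features 0 and 1 passed, and 283 and 1158 were under 0.05 unadjusted. By channel label KLF4 passed with the arrays scaled alike (4 features called) and with its clone as its own feature (21). It also passed with the median of the clones of each gene (8) and without E22B array 2 (8). KLF4 was not called in the main fit, as deposited, with incomplete clones, or without either E22A array or E22B array 1. Of the intermediate filament genes outside the keratins 3 of 15 were measured on all 4 arrays, with a median of 0.00280 in E22B and 0 passing in either reading (0 at an unadjusted p under 0.05 in both).

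Over the 7 lists together, without DSP and KRT14, 44 genes were measured on all 4 arrays. Their median in E22B was 0.04. In E22A the titles gave 0.02, against 0.00211 over all features, and the channel labels 0.03, against -0.00854. By channel label 9 of the 44 (20.5%) were with CDH1 on all 4 arrays, against 17.2% of all features, a share near the background. By list these were 1 of 10 desmosome, 1 of 9 plakin and cornified envelope, 1 of 3 type I keratin and 0 of 5 type II keratin genes. They were also 2 of 4 basement membrane anchors, 0 of 3 other intermediate filament genes and 5 of 11 transcription factors. Lists can share a gene, and the differences between lists were not tested. Of cell type markers, those of basal keratinocytes were measured on all 4 arrays only for KRT14 and ITGB4 among 7 genes, so whether markers of that cell type moved with KRT14 was not tested. Of 5 suprabasal markers 3 were measured, between -0.18 and 0.04 in E22B. Of 9 mesenchymal markers 4 were, and they did not share a side. FN1 (-1.72) was on its side of both E22B arrays, COL1A2, a collagen chain (1.77, from 0.32 and 3.21), and ACTA2, smooth muscle actin (0.36), were on the E-cadherin side of both, and S100A4 changed side. Of 8 markers of kidney epithelium 4 were measured. CDH1 lay on the E-cadherin side of both E22B arrays and KRT8 on the other side of both, while EPCAM and CLDN1 changed side.

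DSP and KRT14 lie on different chromosomes of the dog. In the assembly UU_Cfam_GSD_1.0, KRT14 is in the cluster of type I keratins on chromosome 9, between KRT16 and KRT9, and DSP is on chromosome 35, between RIOK1 and SNRNP48. Of the 10 protein-coding genes on each side of DSP 3 were measured on all 4 arrays, and 0 of the 3 were at 2-fold on any array. The nearest of them, SSR1, stood at 0.46 ± 0.22 and RREB1 at 0.39 ± 0.17 in E22B. Around KRT14 3 genes were measured (KRT16, JUP and EIF1), and 0 of the 3 were at 2-fold on any array. Single arrays held between 2.09% and 3.04% of all features at that size, so 0 of 3 is near the background for both genes. This look at neighbours was chosen after the values of the genes were seen.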

How the data were processed

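The authors deposited 1 table of log2 ratios of the dyes per spot for 4 arrays, taken as log2 by convention, since no label or header states the base. Every fold rests on that. The sources used here do not give the scanning, background correction, filters, normalisation or numerator dye. The columns had medians between -0.00991 and 0.00294, so they had been centred. Between 22360 and 23136 spots had a value. The number of arrays limits the precision.

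Duplicate spots were averaged and each array was centred on its median over clones, a shift of at most 0.0106. Clones measured on every array were averaged by symbol, using platform annotation made for human genes, so ratios also depend on hybridisation of canine RNA across species. The pooled comparison ran lmFit and eBayes of limma 3.58.1 (R 4.3.3), with Benjamini-Hochberg adjusted p-values under 0.05 called, on the mean of each transfectant against 0. It has 1 residual degree of freedom, takes E22A and E22B as replicates of one another and leaves out the control's spread. Its code was tested on simulated data with independent samples and large changes. That does not show how the test behaves here, where the samples share a control.

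DSP, KRT14 and the gene lists were chosen with earlier results of these data known. Named were both genes, a set of desmosome, plakin, keratin and hemidesmosome genes whatever their values, list members at 2-fold on both arrays of a transfectant, the 5 nearest symbols to each, and features at the 2-fold limit. Alternatives covered the orientation of E22A, centring, scale, the filter, the averaging of clones and each array left out.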

Additional observations from a re-analysis of the deposited data

Results flagged for a closer look

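Of 46 list genes measured on all 4 arrays, 8 lay by the titles on one side on both E22A arrays and on the opposite side on both E22B arrays (17.4%), against 1072 of 8657 features (12.4%). These differences were not tested. KRT7 differed by 1.45 log2 units (E22A minus E22B, 0.73 against -0.72), KRT8 by 0.74 (0.34 against -0.39) and KRT10 by 0.28 (0.10 against -0.18). KLF5, a Krüppel-like factor, differed by 0.30 (0.10 against -0.20). DSC2 differed by -0.86 (-0.31 against 0.55), KRT20 by -0.26 (-0.16 against 0.10), SFN, the 14-3-3 sigma protein, by -0.25 (-0.14 against 0.10) and S100A9, a calcium-binding protein, by -0.21 (-0.12 against 0.09). By the channel labels the difference was 0.46 for KRT7, 0.30 for KRT8, 0.17 for KRT10, 0.16 for KLF5, -0.26 for DSC2, 0.000887 for KRT20, -0.13 for SFN and -0.16 for S100A9. DSP and KRT14 did not show such a pattern, since their E22A arrays lay on opposite sides by the titles.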

How the results depend on the processing

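E22B values of DSP and KRT14 do not depend on how the E22A dyes are read. With the arrays scaled alike DSP stood at 1.36 in E22B, beyond its SD, and stayed past 2-fold. Leaving out each E22B array gave 1.41 to 1.44 for DSP and 1.20 to 1.34 for KRT14. In E22A, leaving out each array by the titles gave -1.17 to 1.15 for DSP and -1.60 to 1.09 for KRT14, so their direction there rests on which array is kept. The pooled count was 0 by the titles under every alternative that keeps that reading, and 1 by the channel labels. Applied to the channel-label reading, a choice made after seeing the data, the alternatives gave 0 as deposited and with incomplete clones, 4 with scaling, 8 with the median of clones and 21 with each clone separate. That count was 0 when either E22A array or E22B array 1 was left out, and 8 when E22B array 2 was. DSP and KRT14, chosen from these ratios, are given no test here. Of the other list members, the one called by channel label was KLF4, with scaling, with the median of clones, with each clone separate and without E22B array 2. The median of the 4 type I keratins in E22B was 0.26, and 0.35 with each clone separate. Both medians include KRT14, chosen for its size, and without KRT14 the median was 0.10 in the main setting. Signal over background could not be weighed.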
